A study of Papio anubis with 40 samples.

Results

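The 3′ fragments of the aspartate tRNA with anticodon GTC (tRNA-Asp-GTC) that keep the final CCA were followed in serum of 8 olive baboons (Papio anubis) over 15 months. Members were the fragments whose read ends in CCA and whose last 16 bases match those of tRF-42-S5QKF1R3WE8RO86J2, a fragment of 42 nt, with at most 1 mismatch. The rule found 1820 of 58587 fragments. They held 66072 of 130892201 counts, or 0.0505% of the total. The 42-nt fragment that defines the rule was selected on its difference between month 15 and month 0 in these same libraries, so every comparison with month 0 below is a description. The month 15 libraries entered that choice too, which favours higher levels at month 15 in any comparison with them.

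Each animal gave 1 library at month 0, before inoculation, and 1 each at months 3, 6, 9 and 15 after menstrual tissue was placed in its peritoneal cavity to induce endometriosis. All 40 libraries came from 0.5 mL of serum of animals that received this tissue and, per the labels, no treatment. The series as given holds no animals without inoculation, so time since inoculation, age and order of the draws cannot be told apart. The tissue that released a fragment was not measured, and a higher level through more release or through slower loss from serum cannot be told apart.

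A mature tRNA carries a CCA tail that an enzyme adds after transcription, and the amino acid is attached to its last base. Enzymes such as angiogenin can cut a tRNA in its anticodon loop, which leaves a 5′ piece and a 3′ piece that ends in CCA. In tRNA-Asp the first anticodon base can carry queuosine, and the methyltransferase DNMT2 (TRDMT1) methylates a cytosine of the same loop. The T loop lies nearer the 3′ end and often holds a methylated adenosine.

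The longest members give a consensus of 75 bases for the mature tRNA, shown here with its anticodon in capitals. Bases are counted from 1 at its 5′ end.
Consensus: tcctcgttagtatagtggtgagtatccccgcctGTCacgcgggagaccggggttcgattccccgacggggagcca
The anticodon loop covers bases 32 to 38, with the anticodon at bases 34 to 36, and the T loop covers bases 53 to 59. Of the members that reach the anticodon, 722 fragments with 23222 counts, GTC stood there in 99.2% of counts. That is the anticodon in the label. RefSeq lists 10 genes named TRNAD-GUC in the Panubis1.0 assembly, each 72 nt long, which is the length of the consensus without the CCA. Their sequences were not compared with the consensus. The fragments were not placed at one of these genes.

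The rule compares only the stretch printed next in capitals, the 3′ strand of the T stem and of the acceptor stem with the tail.
tRF-42-S5QKF1R3WE8RO86J2: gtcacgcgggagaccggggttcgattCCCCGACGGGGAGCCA
Of the members, 1246 matched these 16 bases exactly and held 64201 counts. The 574 with 1 mismatch held 1871 counts. No fragment that ends in CCA had 2 mismatches, and 5 fragments with 1 count each had 3, so the edge of the rule fell in a gap. The 3 most abundant members with a mismatch had 58, 38 and 36 counts over all libraries, too few for a test. They are shown with the mismatched base in capitals. The changes were A71G in the first and second and A65G in the third.
tRF-42-S5QKF1R3WE8RO8RJ2: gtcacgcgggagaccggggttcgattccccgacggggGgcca
tRF-41-8HM2OSRNLNKSEKR1B: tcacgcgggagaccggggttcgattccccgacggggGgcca
tRF-42-S5QKF1R3WE8R686J2: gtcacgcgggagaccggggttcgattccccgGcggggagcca

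Since all members share the 3′ end, they differ mainly in where they start, and the start fixes the length. The 10 most abundant members are printed in order of length, with the anticodon bases that each keeps in capitals.
tRF-43-96L85DMKYUYRLHR0D2: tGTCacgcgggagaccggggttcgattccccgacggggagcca
tRF-42-S5QKF1R3WE8RO86J2: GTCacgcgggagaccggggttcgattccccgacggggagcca
tRF-41-8HM2OSRNLNKSEK51B: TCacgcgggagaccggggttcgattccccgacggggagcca
tRF-40-2VR008R959KUMKF6: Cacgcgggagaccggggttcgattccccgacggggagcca
tRF-38-L85DMKYUYRLHR0D2: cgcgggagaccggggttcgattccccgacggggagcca
tRF-36-M2OSRNLNKSEK51B: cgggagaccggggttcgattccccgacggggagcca
tRF-33-5DMKYUYRLHR0D2: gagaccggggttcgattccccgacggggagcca
tRF-30-08R959KUMKF6: accggggttcgattccccgacggggagcca
tRF-29-3K7SIR3DR2I2: ccggggttcgattccccgacggggagcca
tRF-26-RNLNKSEK51B: gggttcgattccccgacggggagcca
Together with the 45-nt and 23-nt fragments below, they include the most abundant member of each of the 4 start classes used here.
tRF-45-3W2VR008R959KUMKF6: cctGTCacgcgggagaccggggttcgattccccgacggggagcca
tRF-23-YUYRLHR0D2: ttcgattccccgacggggagcca
The 34-nt member that equals the consensus from base 42 on is shown because its fitted difference was the largest of the tested members for month 15 against months 0 and 3.
34-nt fragment from base 42: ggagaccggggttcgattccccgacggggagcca

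Starts inside the anticodon loop were the most frequent. They made up 52.2% of the members' counts, in 603 fragments. Starts between the anticodon loop and the T loop made up 34.5%, in 672 fragments. Starts 5′ of the anticodon loop made up 11.4%, in 465 fragments, and starts in the T loop or later 1.95%, in 80 fragments. Within the loop the first anticodon base led. Base 34 opened 31.9% of the loop-starting counts, base 35 opened 20.4% and base 36 opened 17.3%. Base 38, the last of the loop, opened 11.0%, base 33 opened 8.53%, base 37 opened 5.67% and base 32 opened 5.13%. Full-length reads were rare, with 8 counts in 3 fragments. The members were otherwise thinly spread. Of the 1820 members, 767 had a total count of 1, 50 had more than 100 counts, and the 42-nt fragment alone had 8995.

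The same tRNA gave a second set of 3′ pieces, which begin in the anticodon loop but stop before the end of the CCA. These 2445 end-lacking fragments held 158771 counts, 2.40 times the counts of the members of any start. The members that start in the loop, as all end-lacking fragments do, held 34457 counts. In 51.5% of end-lacking counts the last base was base 70, so that 5 bases were missing, and in 13.4% it was base 69. The 2 most abundant end-lacking fragments are shown, which began at bases 38 and 37.
tRF-33-L85DMKYUYRLHDY: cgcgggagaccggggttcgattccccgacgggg
tRF-34-EH623K7SIR3DIY: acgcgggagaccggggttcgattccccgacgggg
The first of them had 37974 counts and the second 28933. Their starts were unlike those of the members. Base 38 opened 48.4% and base 37 opened 41.4% of end-lacking counts, and base 34 opened 0.547%. Averaged per animal, the 3 anticodon bases opened 69.4% ± 4.498 (SD, n = 8 animals) of the members' loop-starting counts and 8.64% ± 3.74 of the end-lacking counts. The member share was higher in 8 of 8 animals, and no animal's member share, 64.4% at the lowest, fell within the end-lacking range, which ended at 15.5%. The mean difference was 60.7 percentage points (exact two-sided sign-flip test over 8 animals, p = 0.0078, the smallest this test can give; adjusted over 2 added tests, p = 0.016). This test was added after the profiles had been seen. Ligation and reverse transcription act on both sets, and their part in the start positions was not tested.

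**Figure D1:**
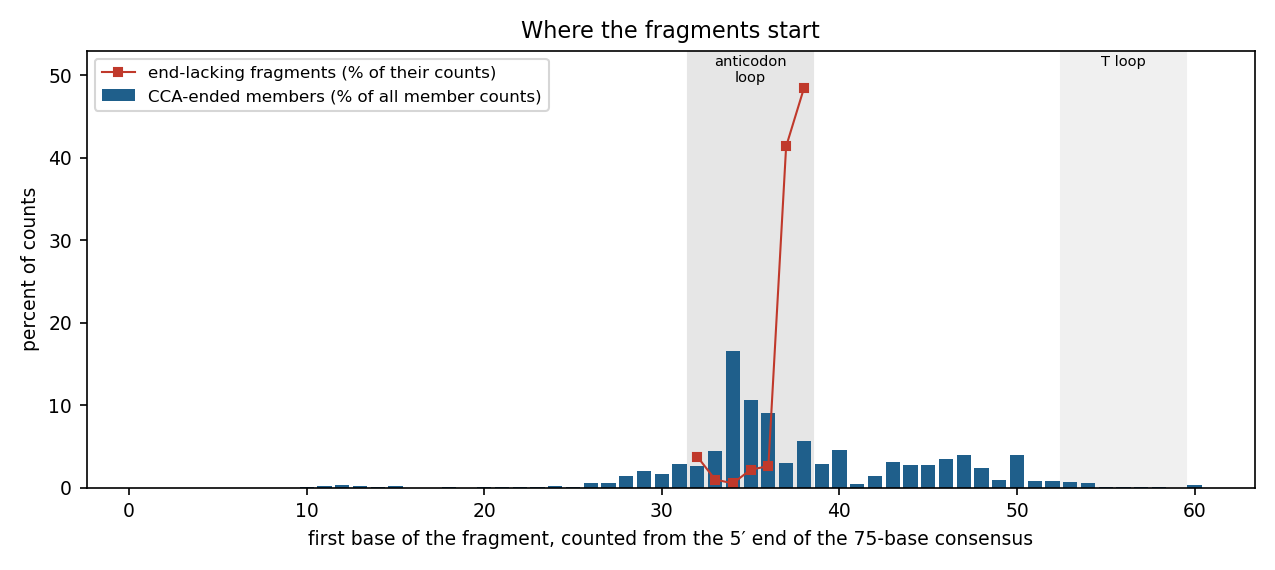
Percent of counts (y axis) by the first base of the fragment in the 75-base consensus (x axis), for the 1820 CCA-ended members as bars and for the end-lacking fragments as squares, over all 40 libraries. Member starts peak at bases 34 to 36, while the end-lacking fragments, which are defined by a start inside the loop, peak at bases 37 and 38.

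Library totals ranged from 198840 to 6245450 counts, and members had 252 to 3342 counts per library. The library of animal PA8001 at month 0 was the shallowest, and 3 counts there correspond to 7.82 CPM. CPM is a count scaled to the library's total, here after TMM scaling, which corrects each library for its composition. The scaling factor of the month 15 library of PA8003 was 0.458, the lowest of the 40, so values of that library are scaled up more than any other. Results are also given with the PA8001 and PA8003 draws of month 15 left out. Those were the highest libraries of month 15 in summed member level, at 1467 and 1678 CPM, and 6 animals remain there. Replicates are different animals.

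All members together stood at 390 ± 224 CPM (SD, n = 8) at month 0, with the lowest library at 104, the median at 302 and the highest at 664. At month 3 they stood at 606 ± 459 CPM, from 142 through a median of 508 to 1523. At month 6 they stood at 531 ± 239 CPM, from 214 through 515 to 947. These first 3 draws overlapped widely. At month 9 the level was 625 ± 368 CPM, from 248 through 524 to 1434. At month 15 it was 940 ± 468 CPM, from 311 through 897 to 1678. Month 15 exceeded month 0 in 7 of 8 animals and each of months 3, 6 and 9 in 6 of 8, and the ranges overlapped throughout. The animals moved differently. PA8914 went from 104 CPM at month 0 to 857 at month 15, and PA8915 was at 315 and 311 CPM at the same draws. With the PA8001 and PA8003 draws left out, the mean of month 15 was 729 CPM. The sum gets no test, since the fragment that defines the rule was chosen by its difference between months 15 and 0.

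**Figure D2:**
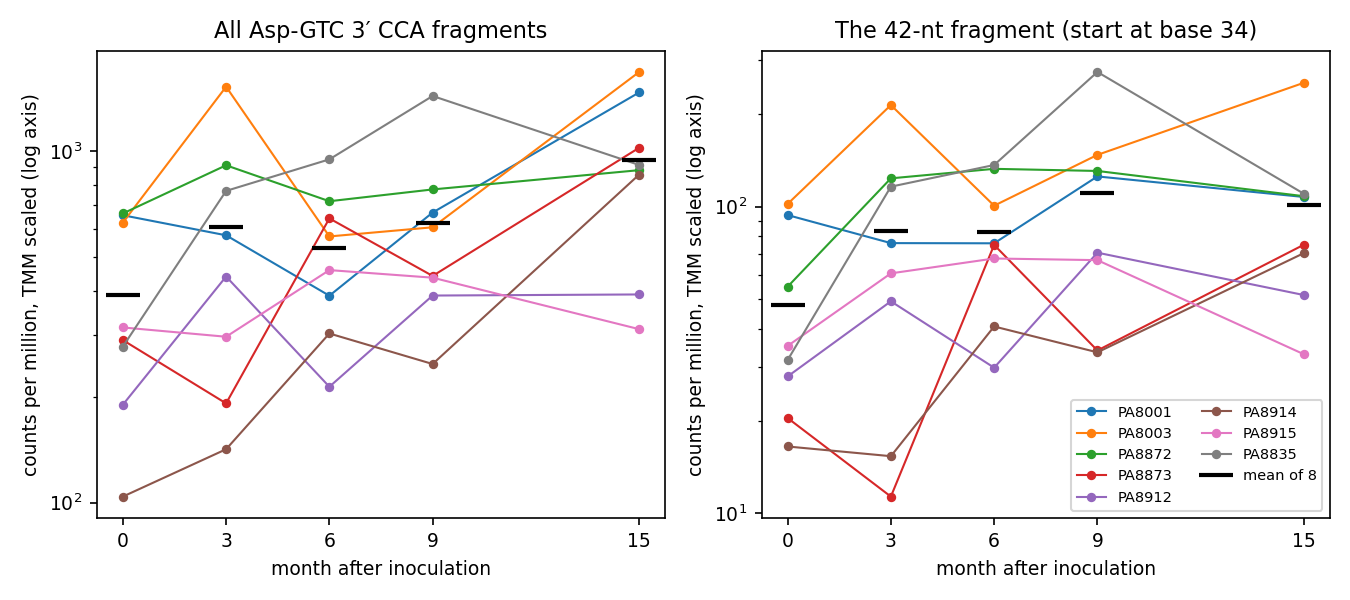
Summed level of all members (left) and level of the 42-nt fragment (right) in TMM-scaled CPM on a log axis, by month, with 1 line per animal and a bar at the mean of 8. The sum ranges from 104 to 1678 CPM, and the mean of month 15 is the highest of the 5 for the sum but not for the 42-nt fragment.

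The 2 largest start classes are given side by side. Members starting between the loops stood at 205 ± 146 CPM at month 3, 156 ± 78.4 at month 6, 214 ± 129 at month 9 and 365 ± 208 at month 15 (SD, n = 8 each). Month 15 was higher in 8 of 8 animals than month 3, in 7 of 8 than month 6 and in 6 of 8 than month 9. Members starting in the anticodon loop stood at 325 ± 264, 305 ± 140, 331 ± 197 and 451 ± 232 CPM at the same months. Here month 15 was higher in 5, 6 and 4 of 8 animals. At month 0 the between-loop members stood at 138 ± 77.8 CPM and the loop-starting members at 199 ± 122 CPM. No p-value is given for these sums, and the 2 classes were not tested against each other. Further on, the share of all member counts that begins in the anticodon loop is tested.

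The 42-nt fragment, which begins at the first anticodon base, was at 47.8 ± 33.0 CPM (SD, n = 8) at month 0, from 16.5 through a median of 33.4 to 102. It was at 83.3 ± 66.9 CPM at month 3, from 11.4 through 68.3 to 214, and at 82.4 ± 38.9 at month 6, from 29.9 through 75.5 to 137. At month 9 it was at 110 ± 79.4 CPM, from 33.5 through 98.1 to 274. At month 15 it was at 101 ± 67.6 CPM, from 33.0 through 91.3 to 253. All 5 ranges overlapped. Month 9 exceeded month 0 in 8 of 8 animals and month 15 exceeded it in 7 of 8. Month 15 exceeded month 9 in 3 of 8 animals, and the fitted log2 difference between them was -0.00 ± 0.33 (SE; edgeR quasi-likelihood test, adjusted p = 0.99). This p does not show that the months were alike.

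The 41-nt fragment tRF-41-8HM2OSRNLNKSEK51B, which lacks the first anticodon base, had medians of 20.3, 39.1, 50.9, 50.4 and 60.8 CPM at months 0, 3, 6, 9 and 15. The 40-nt fragment tRF-40-2VR008R959KUMKF6, which keeps the last anticodon base only, had medians of 27.6, 49.0, 37.6, 29.3 and 77.2 CPM. Its month 15 range, 14.1 to 188 CPM, overlapped that of month 9, 15.7 to 74.6. The 43-nt fragment tRF-43-96L85DMKYUYRLHR0D2, which also holds the loop's T before the anticodon, had medians of 9.17, 16.2, 18.5, 22.3 and 28.8 CPM. Between months 9 and 15 the median of the 40-nt fragment was the one of these 4 that moved most, while that of the 42-nt fragment was lower at month 15. These fragments differ by 1 to 3 bases at the start.

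Members of under 40 nt start past the anticodon. The 39-nt fragment tRF-39-EH623K7SIR3DR2I2, which begins just 3′ of the anticodon, was at 11.5 ± 4.47 CPM (SD, n = 8) at month 9 and 28.1 ± 17.3 at month 15. The 34-nt fragment that equals the consensus from base 42 on was at 4.34 ± 4.02 CPM at month 3 and 12.6 ± 7.27 at month 15, and higher at month 15 in 8 of 8 animals. The 29-nt fragment tRF-29-3K7SIR3DR2I2 was at 12.8 ± 5.23 CPM at month 6 and 35.8 ± 27.6 at month 15. Its lowest month 15 library, at 15.1 CPM, lay within the month 6 range, which reached 24.1. Its highest month 15 library, PA8001 at 99.2 CPM, stood far from the next at 44.3. The 26-nt fragment tRF-26-RNLNKSEK51B had medians of 11.6, 18.5, 18.2, 17.5 and 25.5 CPM at months 0, 3, 6, 9 and 15. The 23-nt fragment tRF-23-YUYRLHR0D2, the most abundant that begins in the T loop, was low throughout, with medians of 1.44, 2.55, 2.79, 3.63 and 3.15 CPM.

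Of the 1820 members, 34 had enough counts for the test across all fragments, and 1786 did not. The 34 had lengths of 22 to 50 nt and held 82.6% of the members' counts. The filter keeps fragments that reach a minimum in as many libraries as a month has, so a member high only at 1 month can pass through that month. Each of 2447 tested fragments was fitted with edgeR, with the animal as a block.

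Against month 0, the contrasts by which the members were chosen, 17 of 34 members were called higher at month 15 and 0 lower. Of all tested fragments 2.21% were called higher there. The members' median log2 difference was 1.45, beside 0.05 for all tested fragments. At months 3, 6 and 9 against month 0 edgeR called 0 members, and of all tested fragments 0% in each comparison. At an unadjusted p under 0.05 there were 5, 7 and 9 members, and DESeq2 and limma-voom also called 0. The members' medians were 0.51, 0.42 and 0.64, beside 0.10, 0.01 and 0.06 for all tested fragments. These 4 comparisons share the month 0 libraries, and nothing is read from them. Without PA8914 the month 15 comparison had 0 calls, without PA8003 it had 1, without PA8912 3, without PA8873 4 and without PA8001 7, and with library totals as the only scaling it had 2. With the PA8001 and PA8003 draws of month 15 left out it had 0.

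The contrasts of month 15 with months 3, 6 and 9 were not used to choose the fragment that defines the rule, but they reuse the month 15 libraries that were. They are thus not independent of the choice, a direction towards higher at month 15 is favoured by it, and their counts and p-values are given as the output of the fit and support nothing further. Counts and differences under other settings, or with animals or draws left out, are given without those of all tested fragments. Nothing is read from them. Month 15 against month 6 gave the most calls. There 14 of 34 members rose (41.2%) and 0 fell, beside 17% of all tested fragments called higher. The members' median log2 difference was 0.97, beside -0.06 for all tested fragments. The calls lay mainly at starts between the loops, where 12 of the 14 tested members with 24 to 37 nt were called, with a median of 1.24. Of the 6 tested members with 41 to 43 nt, 0 were called by edgeR, DESeq2 or limma-voom and 0 had an unadjusted p under 0.05, with a median of 0.52. These 6 are only a part of the 12 tested members that start in the loop, with 38 to 44 nt. Of the others in the loop, edgeR called tRF-39-EH623K7SIR3DR2I2 (1.17 ± 0.42, adjusted p = 0.037) and tRF-40-2VR008R9D9KUMKF6 (1.33 ± 0.49, adjusted p = 0.040). The rest of 38, 40 and 44 nt were not called. The length groups were not among the planned comparisons. The largest rises were those of tRF-25-R959KUMKF6, by a log2 difference of 1.49 ± 0.49 (SE; edgeR adjusted p = 0.024), and of tRF-24-7SIR3DR2I2, by 1.45 ± 0.49 (edgeR adjusted p = 0.025). Next was tRF-37-QKF1R3WE8RO86J2, by 1.43 ± 0.39 (edgeR adjusted p = 0.0097). These 3 were each higher at month 15 in 6 of 8 animals. The first 2 were low at month 6, at 3.12 ± 2.18 and 2.90 ± 2.21 CPM (SD, n = 8). Their lowest libraries there were at 0 and 0.775 CPM, and 3 counts correspond to 0.57 to 7.82 CPM by library. tRF-29-3K7SIR3DR2I2 rose by 1.28 ± 0.35 (edgeR adjusted p = 0.0090) and was higher in 8 of 8. The number of calls was 6 without PA8001, 7 without PA8003 and 6 without PA8914. With both of the month 15 draws of PA8001 and PA8003 left out it was 0, with all 34 differences still above 0 and a median of 0.79.

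Month 15 against month 3 gave 3 calls of 34 (8.82%), all higher, beside 7.19% of all tested fragments, so the count was near the background. The members' median was 0.91, beside -0.11 for all tested fragments, and 34 of 34 differences were above 0, beside 44.8% of all tested fragments. The 3 were the 34-nt fragment from base 42, which rose by 1.74 ± 0.44 on the log2 scale (edgeR adjusted p = 0.028), tRF-25-R959KUMKF6, by 1.52 ± 0.48 (adjusted p = 0.044), and tRF-33-5DMKYUYRLHR0D2, by 1.14 ± 0.37 (adjusted p = 0.045). They were higher in 8, 7 and 7 of 8 animals. At month 3 tRF-25-R959KUMKF6 was low, at 3.70 ± 4.20 CPM (SD, n = 8). The count was 0 without PA8873 or PA8914, 1 without PA8003 or PA8915, 5 without PA8835 and 0 with both of those month 15 draws left out.

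Month 15 against month 9 gave 4 calls of 34 (11.8%), all higher, below the 18.2% of all tested fragments. The members' median was 0.79, beside -0.04 for all tested fragments. Of the 4, 3 began just at or past the anticodon's last base. tRF-40-2VR008R9D9KUMKF6 rose by 1.46 ± 0.49 (SE, log2; edgeR adjusted p = 0.025), tRF-39-EH623K7SIR3DR2I2 by 1.24 ± 0.42 (adjusted p = 0.027) and tRF-40-2VR008R959KUMKF6 by 1.13 ± 0.37 (adjusted p = 0.023). The first of these was low, at 2.23 ± 1.25 CPM (SD, n = 8) at month 9, and it was 0 in PA8915 at month 15. The fourth called member was the 32-nt fragment tRF-32-F1R3WE8RO86J2. The count was 0 without PA8003 or PA8873, 2 without PA8001 or PA8914, 12 without PA8835 and 0 with both of those month 15 draws left out. The 3 comparisons share the month 15 libraries and are not independent. In the comparisons of months 3, 6 and 9 with each other, 0 members were called by edgeR, by DESeq2 or by limma-voom, beside 0% of all tested fragments in each comparison. At an unadjusted p under 0.05 there were 0, 0 and 1 members for month 6 against 3, 9 against 3 and 9 against 6.

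**Figure D3:**
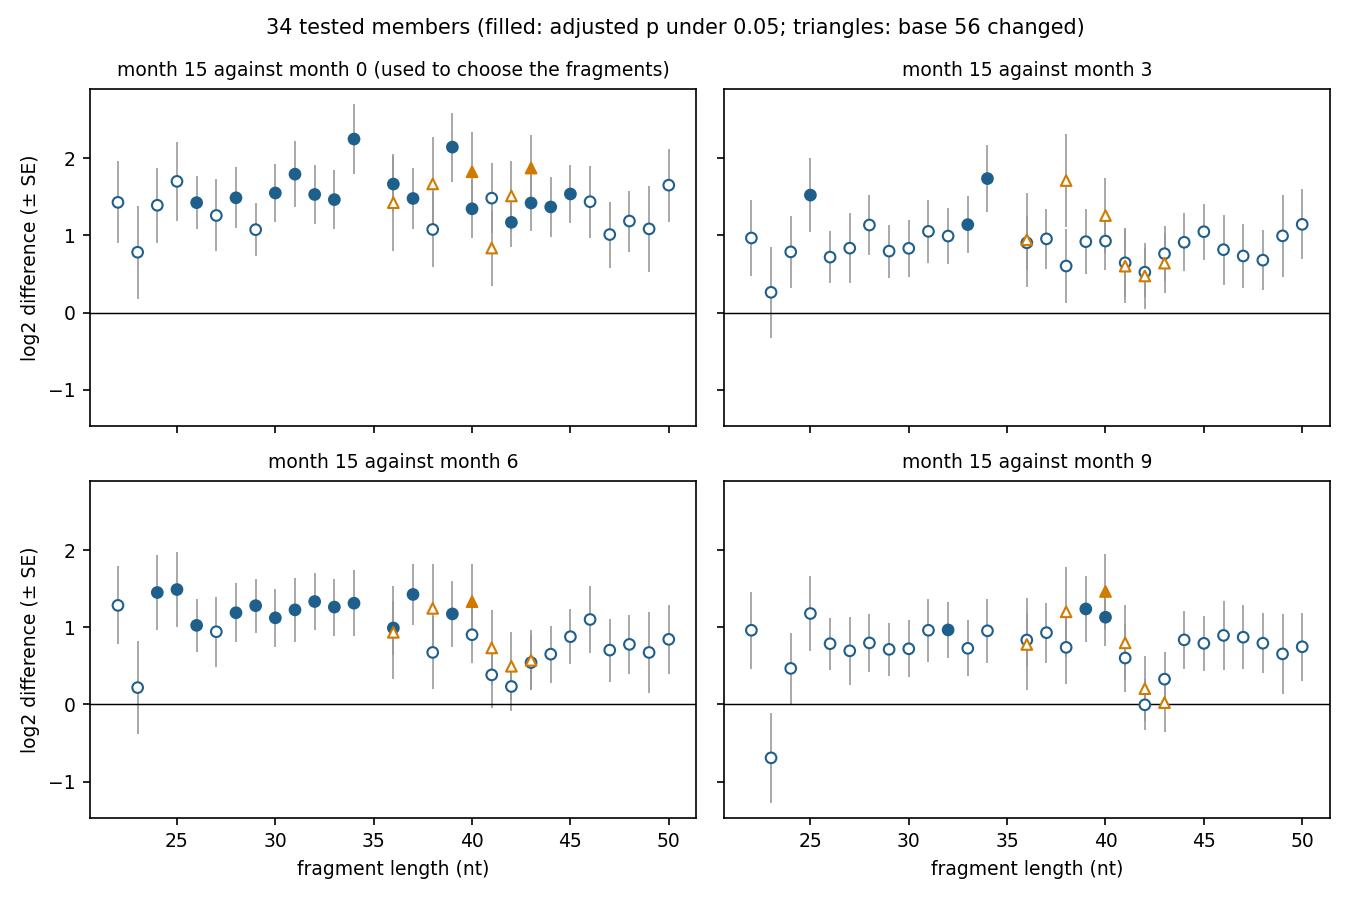
Fitted log2 differences (y axis, bars are SE) of month 15 against each earlier month by fragment length (x axis) for the 34 tested members. Filled symbols passed an adjusted p of 0.05 and triangles carry A at base 56. Against months 6 and 9 the members of 41 to 43 nt sit lower (medians 0.52 and 0.27) than those of 24 to 37 nt (medians 1.24 and 0.79). Members of 38 to 40 and of 44 nt, which also start in the anticodon loop, are in neither group.

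Other fragments that end in CCA were set beside the members. There were 3123 of them with 57670 counts, and 25 were tested. The set holds each fragment whose read ends in CCA and does not meet the rule. Which tRNA each came from, and whether its CCA was the tail, was not checked. The median log2 difference of these 25 at month 15 was 0.88 against month 3, 1.56 against month 6 and 1.32 against month 9. In turn 20, 20 and 21 of 25 differences were above 0, beside 44.8%, 47.1% and 47.9% of all tested fragments. Calls in either direction numbered 1, 10 and 7 of 25. The share of all tested fragments called in either direction is not given here, so nothing is read from these calls. Their summed level was 836 ± 497 CPM (SD, n = 8) at month 15 and 371 ± 57.8 CPM at month 6, higher at month 15 in 8 of 8 animals. A higher level at month 15 was thus also measured in CCA-ended fragments that did not meet the rule. The end-lacking fragments of tRNA-Asp were at 1330 ± 979 CPM at month 6 and 1089 ± 867 at month 15, higher at month 15 in 2 of 8 animals. The 5′ fragments of tRNA-Asp were at 276 ± 91.9 CPM at month 6 and 639 ± 744 at month 15, where PA8001 alone reached 2441 CPM. They were at 414 ± 254 CPM at month 0 and 427 ± 301 at month 3. Month 15 was higher in 6 of 8 animals than month 6 and than month 9. It was higher in 3 of 8 than month 0 and than month 3.

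The composition of the family by start was tested over animals, as a share of each library's member counts. The month 15 libraries entered the choice of the fragment that defines the rule. The p-values of the shares below are thus not independent of that choice and support nothing further. That fragment held 8995 of the 11000 member counts that begin at base 34. The share that begins at base 34 was 16.4% ± 5.46 (SD, n = 8) at month 3, 19.0% ± 3.95 at month 6, 20.3% ± 5.67 at month 9 and 13.3% ± 3.12 at month 15. At month 0 it was 15.0% ± 4.55. At month 15 it ranged from 9.27% through a median of 14.1% to 17.3%, and at month 9 from 10.4% through 20.7% to 29.3%, so the ranges overlapped. Within animals it was lower at month 15 than at month 6 in 8 of 8, with a mean difference of -5.69 percentage points (exact two-sided sign-flip test, p = 0.0078; adjusted over 15 tests, p = 0.059). Against month 9 it was also lower in 8 of 8, with a mean difference of -7.00 points (exact p = 0.0078, adjusted p = 0.059). Against month 3 it was lower in 5 of 8, by a mean of -3.09 points (exact p = 0.14, adjusted p = 0.23). With 8 animals the smallest p is 0.0078, which 2 of the 15 tests reached, and 0 of the 15 passed 0.05 after adjustment. From month 6 to month 15 the largest drop was that of PA8001, from 26.3% (95% Wilson interval 23.8 to 29.0) of 1088 counts at month 6 to 9.27% (8.29 to 10.4) of 3032 at month 15. With the month 15 draws of PA8001 and PA8003 left out, the mean differences were -4.09 and -5.24 points, each with an exact p of 0.031, the smallest that 6 animals allow (adjusted p = 0.16).

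The share that begins anywhere in the anticodon loop was 57.0% ± 3.49 (SD, n = 8) at month 6 and 48.9% ± 6.21 at month 15, lower in 7 of 8 animals (mean difference -8.03 points, exact sign-flip p = 0.023, adjusted p = 0.12). Against months 3 and 9 the differences were -1.40 and -3.59 points (exact p = 0.65 and 0.10, adjusted p = 0.88 and 0.23). With the month 15 draws of PA8001 and PA8003 left out, the differences from months 3, 6 and 9 were 0.55, -6.40 and -2.07 points (exact p = 0.88, 0.063 and 0.28, adjusted p = 0.94, 0.23 and 0.47), so that the sign against month 3 turned. The share in fragments of at most 24 nt was small, with means of 3.10%, 2.76%, 3.55% and 2.67% at months 3, 6, 9 and 15 (exact p from 0.11 to 0.97, adjusted p from 0.23 to 0.98). With the month 15 draws of PA8001 and PA8003 left out, the difference from month 3 went from -0.43 to -0.72 points (exact p = 0.44, adjusted p = 0.66). In the month 0 library of PA8001 it was 0 of 252 counts, which allows a share of up to 1.19%. Intervals and limits of this kind cover counting error only.

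The balance between CCA-ended and end-lacking fragments was given as a log2 ratio of their counts. The CCA-ended side takes members of any start, and the end-lacking side only starts in the anticodon loop. A change in members with other starts thus moves the ratio too. The p-values below are not independent of the choice of the rule, since the month 15 libraries entered it, and they support nothing further. The ratio was -1.42 ± 1.56 (SD, n = 8) at month 0, -1.27 ± 1.71 at month 3, -1.06 ± 1.21 at month 6, -1.06 ± 1.30 at month 9 and -0.11 ± 0.66 at month 15. Single libraries lay far apart. PA8914 had the lowest ratio of all libraries at month 3, -4.499, and PA8835 the highest at month 9, 1.38. Month 15 was higher than month 9 in 7 of 8 animals (mean difference 0.95, exact sign-flip p = 0.063, adjusted p = 0.23) and higher than month 3 in 6 of 8 (1.16, exact p = 0.086, adjusted p = 0.23). Against month 6 it was higher in 5 of 8 (0.95, exact p = 0.14, adjusted p = 0.23). With the month 15 draws of PA8001 and PA8003 left out, the differences from months 3, 6 and 9 were 1.74, 1.33 and 0.91 (exact p = 0.031, 0.13 and 0.16, adjusted p = 0.16, 0.38 and 0.39).

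**Figure D4:**
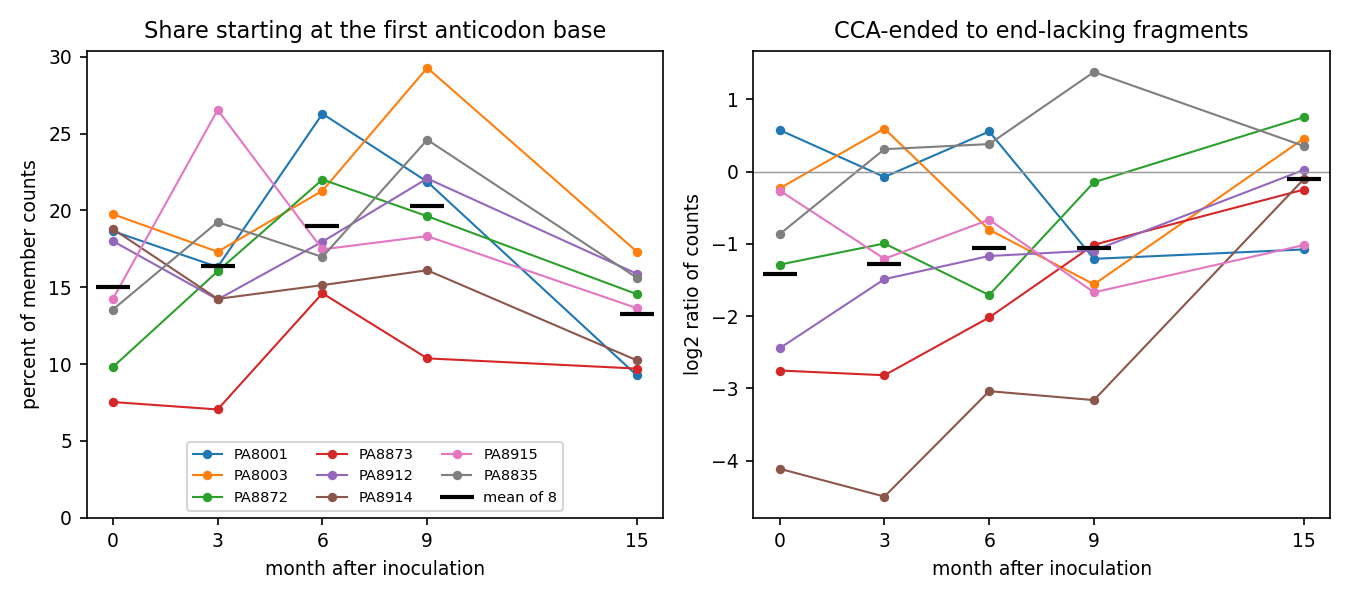
Share of member counts that begins at base 34 (left, percent) and log2 ratio of CCA-ended to end-lacking counts (right) by month, with 1 line per animal and a bar at the mean of 8. The ratio takes members of any start but only end-lacking fragments that start in the anticodon loop. All 8 lines on the left fall from month 9 to month 15, and the lines on the right range from -4.499 to 1.38.

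Base changes among the members were concentrated at few positions. Reads that equal the consensus throughout made up 82.0% of the members' counts, in 55 fragments. At base 56, in the T loop, 7.39% of 65769 covering counts had A instead of G (G56A; 95% Wilson interval 7.19 to 7.59). As a single change outside the last 16 bases G56A occurred in 136 members, 6 of them tested. These have 36, 38, 40, 41, 42 and 43 nt, and 3 are shown with base 56 in capitals.
tRF-42-S5QKF1R38E8RO86J2: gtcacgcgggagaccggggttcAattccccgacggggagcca
tRF-41-8HM2OSRN2NKSEK51B: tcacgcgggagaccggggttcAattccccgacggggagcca
tRF-40-2VR008R9D9KUMKF6: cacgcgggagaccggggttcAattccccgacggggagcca
Means of the G56A share by animal ranged from 6.30% to 8.39%. Means by month were 7.32%, 7.71%, 6.83%, 7.32% and 7.38% (SD 1.46, 1.37, 0.961, 1.06 and 2.02, n = 8 each). The end-lacking fragments carried it at a mean of 7.19% ± 1.74 per animal beside 7.31% ± 0.629 in the members. Pooled over all counts, which weights deep libraries more, the end-lacking share was 8.45% (8.32 to 8.60), above the members' 7.39%. The difference of the per-animal means, 0.12 percentage points with an SD of 1.46 over animals, missed the threshold (exact sign-flip p = 0.80, adjusted p = 0.80; added after the data were seen). Whether G56A is a second gene copy, a modified base misread or an error of sequencing was not tested.

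At base 57, the T loop adenosine next to it, T was read in 1.17% of 65814 covering counts (A57T; 95% Wilson interval 1.09 to 1.26) and C in 0.325% (A57C). Base 20 is reached by longer members only, and there 107 of 1031 counts, 10.4% (8.66 to 12.4), had T (G20T). At each of the other bases covered by at least 1000 counts another base made up at most 0.964%. The rule limits change at bases 60 to 75, since it requires the CCA and allows at most 1 mismatch there. The share of counts with any change outside the last 16 bases was 15.6%, 15.9%, 15.4% and 15.4% at months 3, 6, 9 and 15, with mean differences of month 15 from -0.53 to 0.02 points (exact sign-flip p from 0.72 to 0.98, adjusted p from 0.90 to 0.98). With the month 15 draws of PA8001 and PA8003 left out, the differences from months 3, 6 and 9 were -0.21, 0.77 and -0.55 points (exact p from 0.53 to 0.84, adjusted p from 0.72 to 0.94), with the sign turned against months 6 and 9.

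**Figure D5:**
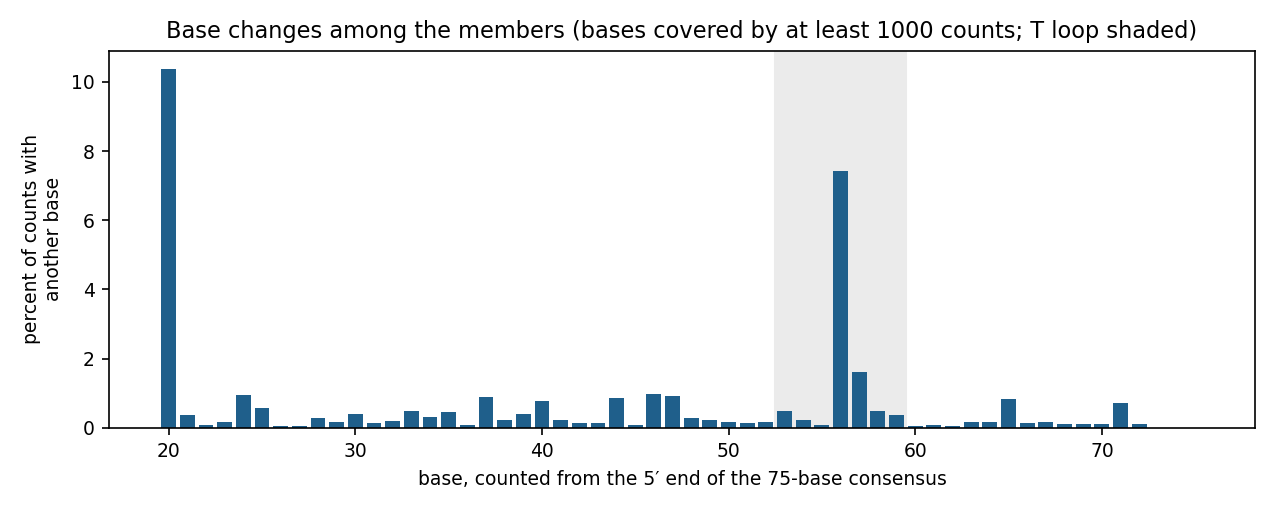
Percent of covering counts with a base other than the most common one (y axis) by base of the consensus (x axis), over all members and 40 libraries, for bases covered by at least 1000 counts. Bases 20 (10.4%) and 56 (7.42%, of which 7.39 points are A) stand above all others. Change at bases 60 to 75 is limited by the rule itself.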

How the data were processed

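Serum of 8 baboons at 5 draws gave 40 libraries. Per the labels' protocols, total RNA from 0.5 mL of serum was extracted with magnetic beads, both ends received ligated adapters, cDNA synthesis brought in molecular identifiers, and libraries were run on a NovaSeq X. The authors deposited whole-number counts per distinct fragment sequence and library, unscaled, and a table of the sequences. The submitters' processing notes name R 4.5.0, edgeR and limma. Aligner and tRNA reference: not given in the sources used here. Collapsing by identifier is not stated. Of 60201 lines, 1614 without an ID (0.0805% of counts) were left out, 42 of which would have met the rule on sequence.

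The members and lists were chosen with earlier results of these data known. Start positions were counted back from the shared 3′ end. Loops were placed from the anticodon and the stems around it in the consensus. End-lacking fragments begin in the anticodon loop, match the consensus with at most 2 mismatches and stop 1 or more bases before its end. The 5′ fragments match it from bases 1 to 3 with at most 2 mismatches. The test of counts used edgeR 4.0.16 (R 4.3.3) with filterByExpr at a minimum count of 10, TMM scaling, a robust quasi-likelihood fit of month with animal as a block, and Benjamini-Hochberg adjustment over all 2447 fragments, called at 0.05. The fit was tested on simulated data. The SE of an edgeR log2 difference was worked back from its size and the F statistic of its test. It is less exact for differences near 0. Shares and ratios used libraries with at least 30 member counts and exact two-sided sign-flip tests over animals (Python 3.11.15). Wilson intervals are at 95%, and the lower limit of detection is 3 counts. DESeq2 1.42.0, limma-voom (limma 3.58.1), other scalings, no filter, a minimum of 100 counts, an exact match, and leaving out animals or libraries were tried. Named fragments were the 42-nt fragment of the rule, the 10 members with most counts, the first of each start class, the 3 largest changes per later comparison and direction, and the 3 most abundant at the edge of the rule. The fragments tRF-32-F1R3WE8RO86J2, tRF-41-8HM2OSRN2NKSEK51B and tRF-42-S5QKF1R38E8RO86J2, the end-lacking examples and tRF-29-3K7SIR3DR2I2 beside the month 6 calls were named after their values were seen.

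Draws of an animal were paired by the baboon number in the labels. Deviations from month means correlated at 0.191 on average between draws of the same animal and at -0.046 between animals, and 54 of 80 same-animal pairs exceeded 0.1.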

Additional observations from a re-analysis of the deposited data

Results flagged for a closer look

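Within each month, 24 measures (the summed level, the shares and ratio, and the named members that were tested) were examined for a library far from the other 7 by Dixon's criterion, in 120 groups of 8. Chance flags about 1 in 20 groups, and 18 flags were raised.

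PA8835 at month 9 stood apart in the summed level, 1434 CPM with the next library at 778. The same library stood apart in tRF-42-S5QKF1R3WE8RO86J2 at 274 CPM, tRF-30-08R959KUMKF6 at 42.7, tRF-23-YUYRLHR0D2 at 25.3, tRF-25-R959KUMKF6 at 14.5 and tRF-37-QKF1R3WE8RO86J2 at 29.0. PA8003 at month 3 stood apart in tRF-41-8HM2OSRNLNKSEK51B at 197 CPM, with the next at 70.3. It also did so in tRF-26-RNLNKSEK51B at 65.3, tRF-23-YUYRLHR0D2 at 6.42, tRF-25-R959KUMKF6 at 13.4 and tRF-24-7SIR3DR2I2 at 16.3.

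At month 15, PA8003 had 253 CPM of tRF-42-S5QKF1R3WE8RO86J2 with the next at 110, and PA8001 had 99.2 CPM of tRF-29-3K7SIR3DR2I2 with the next at 44.3. At month 0, PA8001 had 39.1 CPM of tRF-33-5DMKYUYRLHR0D2, PA8003 had 8.43 CPM of tRF-23-YUYRLHR0D2 and PA8872 had 18.5 CPM of tRF-39-EH623K7SIR3DR2I2. The share of fragments of at most 24 nt was 7.44% in PA8912 at month 6. The share with another base outside the last 16 was 20.1% in PA8915 at month 0.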

How the results depend on the processing

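Counts of members called depended on the settings. For month 15 against months 3, 6, 9 and 0 in turn, the reported counts were 3, 14, 4 and 17. With library totals as the only scaling they were 1, 13, 2 and 2, with no filter on low counts 0, 0, 1 and 2, with DESeq2 14, 18, 10 and 25, and with limma-voom 1, 11, 2 and 7. With the PA8001 and PA8003 draws of month 15 left out, all 4 counts were 0. The share of all tested fragments called is given for the reported fit only. Whether the members differ from all fragments under another setting can thus not be read from these counts. Leaving out each animal in turn gave 0 to 5, 6 to 18, 0 to 12 and 0 to 19. Without the replicate block, that is without pairing draws by animal, the counts were 0, 8, 2 and 5. DESeq2's size factors and an exact match of the last 16 bases kept each count within 1.5 times, and the other comparisons stayed at 0 calls in each setting run. No share or ratio passed the adjusted threshold in the settings run, and each summed level stayed within 1 SD. For 18 single members with 54 results, each pairing of a result with a setting was counted. Of these pairings 107 lost a call, 23 gained one, 734 stayed the same and 0 reversed.

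Depth limits the rest: 1786 members were too rare to test, and 3 counts correspond to 0.57 to 7.82 TMM-scaled CPM by library.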
